A study of Mus musculus with 6 samples.

Results

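The genes described here serve the use of glucose and the response to low oxygen. They are 40 named genes of glucose uptake, glycolysis, lactate formation and the pentose phosphate pathway, with the oxygen-regulated factor HIF1, its oxygen sensors and some of its known targets. A gene was taken as measured where the array held a probe set annotated to that gene symbol alone, and where a gene had several such probe sets the brightest over all 6 arrays was used. By this rule 36 of the 40 genes were measured, among 19938 genes in all. Gapdh, Eno1, G6pdx and Gpi1 were not analysed here. Adm, the peptide adrenomedullin, lay under the brightness threshold of log2 4.72 with a mean of 4.55 in PBS and 4.48 in rapamycin mice, which left 35 of 13965 genes tested.

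The RNA came from spleen cells of irradiated B6D2F1 mice, taken 10 days after transplantation of T-cell-depleted B6 bone marrow. The labels state that B6 spleen cells were added to the graft or left out, without saying for which mice. The mice had received either PBS or rapamycin, an inhibitor of the growth kinase mTOR, at 1.5 mg/kg by intraperitoneal injection on alternate days up to day 10, with 3 mice and 3 arrays per group. Cells were enriched with magnetic beads against CD11b, an integrin of myeloid cells, and are called myeloid-derived suppressor cells (MDSCs) in the labels, a name for immature myeloid cells that suppress T cell responses. Itgam, which encodes CD11b, had mean log2 levels of 12.39 in PBS and 12.27 in rapamycin mice. All 14 mature neutrophil markers, 12 neutrophil progenitor markers, 11 measured monocyte markers and 14 macrophage markers lay above the brightness threshold, while 5 of 9 B cell markers and 4 of 12 T and NK cell markers did not. The threshold does not set myeloid cells apart. Above it also lay 9 of 10 erythroid markers, 8 of 12 T and NK cell markers, 7 of 12 eosinophil, basophil and mast cell markers and 3 of 5 platelet markers. Bead enrichment leaves a mixture, and in such bulk samples fewer cells of a type and less RNA per cell cannot be told apart.

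Glycolysis splits glucose into pyruvate, which lactate dehydrogenase turns into lactate or mitochondria oxidise through the pyruvate dehydrogenase complex. The pentose phosphate pathway branches off after the first step and supplies NADPH, which the oxidative burst of neutrophils and macrophages consumes, and ribose for nucleotides. HIF1 is a transcription factor whose alpha subunit is hydroxylated by the Egln prolyl hydroxylases and degraded when oxygen is present. It binds DNA at the core ACGTG or GCGTG, and mTOR activity is known to raise its output and that of many glycolytic genes.

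Upstream stretches of 5 genes whose levels differed between the groups are shown as examples that hold the HIF1 core ACGTG. Pgam1, lower with rapamycin, also holds it and is not shown. Each gives the 250 bases before the gene's start from 5′ to 3′ on the gene's strand, from RefSeq on GRCm38.p6, with each ACGTG on either strand (CACGT on the opposite one) in capitals. Ldha lies at chr7:46845554-46845803 on the plus strand, and the others on minus strands, Hk2 at chr6:82774455-82774704, Ero1a at chr14:45318573-45318822, Egln1 at chr8:124949255-124949504 and Ankrd37 at chr8:45999851-46000100.
Ldha: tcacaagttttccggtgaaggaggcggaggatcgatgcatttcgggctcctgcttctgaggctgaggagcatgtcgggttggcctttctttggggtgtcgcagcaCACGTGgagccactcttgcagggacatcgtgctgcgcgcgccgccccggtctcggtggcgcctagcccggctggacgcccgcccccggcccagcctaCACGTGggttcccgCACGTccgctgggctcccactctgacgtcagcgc
Hk2: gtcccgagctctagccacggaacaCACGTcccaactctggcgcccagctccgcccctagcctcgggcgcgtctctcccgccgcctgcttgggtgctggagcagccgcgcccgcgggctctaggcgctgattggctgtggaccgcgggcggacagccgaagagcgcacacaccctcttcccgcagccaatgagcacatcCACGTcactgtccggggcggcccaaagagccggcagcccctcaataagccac
Ero1a: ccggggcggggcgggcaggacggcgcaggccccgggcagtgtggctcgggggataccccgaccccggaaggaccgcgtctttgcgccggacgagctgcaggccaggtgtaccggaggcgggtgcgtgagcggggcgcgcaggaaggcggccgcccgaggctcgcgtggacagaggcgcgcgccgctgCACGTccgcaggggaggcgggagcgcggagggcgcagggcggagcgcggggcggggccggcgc
Egln1: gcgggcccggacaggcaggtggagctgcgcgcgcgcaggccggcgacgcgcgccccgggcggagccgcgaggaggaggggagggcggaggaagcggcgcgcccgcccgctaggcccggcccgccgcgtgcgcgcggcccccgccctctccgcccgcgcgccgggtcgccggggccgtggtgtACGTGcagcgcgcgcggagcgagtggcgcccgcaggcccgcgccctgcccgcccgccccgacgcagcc
Ankrd37: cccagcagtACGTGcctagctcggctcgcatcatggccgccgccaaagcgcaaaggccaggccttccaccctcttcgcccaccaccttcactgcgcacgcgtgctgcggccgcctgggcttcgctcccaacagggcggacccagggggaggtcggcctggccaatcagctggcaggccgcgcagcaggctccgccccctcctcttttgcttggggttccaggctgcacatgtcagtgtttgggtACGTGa
Ldha had 3 capital stretches, and 2 of them spelled the palindrome CACGTG, in which both strands match and which is also the E-box bound by other factors. Hk2 and Ankrd37 had 2 stretches each, Ero1a and Egln1 had 1 each. RefSeq windows were matched for 38 of the 40 genes, with several starts for some, while Ndrg1 and Slc2a3 were not matched. Ldha had 2 windows, and the stretch shown is from the one that holds ACGTG. In windows from 250 bases before to 50 after the start, ACGTG was found on either strand in 27 of 55 windows of these genes (49.1%) and in 19.6% of 32851 windows of all genes. GCGTG was found in 33 windows of these genes (60.0%) against 32.4%, either core in 80.0% against 43.8%, and CACGTG, which overlaps ACGTG, in 9.09% against 7.15%. The windows of these genes also held more CG dinucleotides, with a median of 20 against 7, and both cores contain one. ACGTG occurred in 4 of 8 windows of the genes that fell, 3 of 6 of those that rose and 18 of 34 of those with no call. Hk1, with 2 of these 6 windows, was counted as risen by its brighter probe set, and its other one fell. A match is a description of letters and not a mapped binding site.

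The genes did not move as a block. With rapamycin, both lactate dehydrogenase subunits (Ldha, Ldhb), hexokinase 2 (Hk2), the pentose phosphate enzyme Pgd, the mutase Pgam1 and the oxidoreductase Ero1a fell by between 1.18-fold and 1.46-fold. Pdk1, which restrains pyruvate dehydrogenase, the oxygen sensor Egln1, and the HIF1 targets Ankrd37 and Ndrg1 rose by between 1.18-fold and 1.40-fold. Hk1 rose by 1.26-fold on its brighter probe set and fell on its other one, as described below. In the fit of all genes with limma, at a Benjamini-Hochberg adjusted p under 0.05, 5 of the 35 genes tested rose and 6 fell, while 24 did not pass. Over all 13965 genes tested, 4.42% rose, 6.92% fell and 11.3% did either. At an unadjusted p under 0.05, 8 of the 35 genes were higher and 8 lower, where 1578 (11.3%) and 2363 (16.9%) of all genes were. The 3 arrays of a group lay entirely above the 3 of the other for 7 genes with rapamycin above and for 8 with rapamycin below, where 12.6% and 19.4% of all genes did so (32.0% in either direction). The median log2 change was 0.017 over the 35 genes and -0.017 over all genes tested. Their median absolute change was 0.15 against 0.090 over all genes. The 35 genes were also brighter, with a median level of log2 9.15 against 6.77, and genes of equal brightness were not compared. None of the 35 reached a 1.5-fold change, which 1.37% of all genes did.

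**Figure D1:**
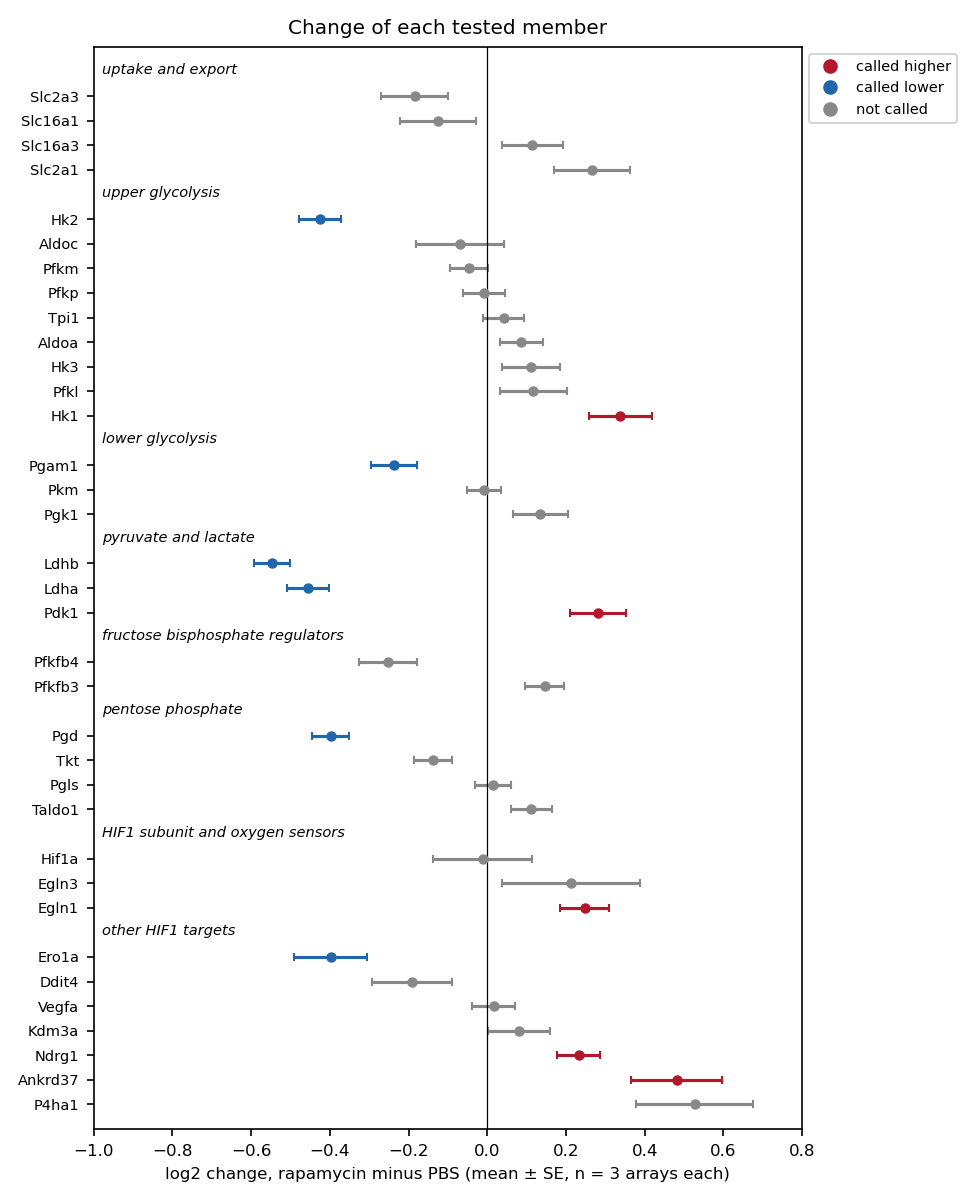
Log2 change (rapamycin minus PBS, mean ± SE from the fit, 3 arrays per group) on the horizontal axis for each of the 35 genes tested, ordered by role; red marks the 5 genes that rose, blue the 6 that fell and grey the 24 that did not pass. The changes run from -0.55 (Ldhb) to 0.53 (P4ha1, which did not pass), and both directions occur within most roles.

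Leaving out an array (a reduced fit, below) changed these counts, partly through the smaller sample. In 5 of the 6 reduced fits, 0 of the 35 genes were called higher by limma, with 7 of 35 higher at an unadjusted p under 0.05 in each, where between 8.58% and 10.4% of all genes were. Without rapamycin replicate 3, 4 were called higher, Slc2a1, Egln1, Ankrd37 and P4ha1, where 561 of all genes were. Between 2 and 5 genes were called lower in the 6 reduced fits, where between 61 and 775 of all genes were. The 2 without PBS replicate 2, the fit with 61, were Ldhb and Pgd. At an unadjusted p under 0.05 in limma, between 7 and 9 of the 35 were lower, where between 13.5% and 16.1% of all genes were. Ldhb and Pgd passed without any one array, and Ldha and Hk2 passed in 5 of 6 such fits, with an adjusted p of 0.0504 each without PBS replicate 2. In an unmoderated fit, which does not pool the variance over genes, 1 of the 6 (Ldhb) remained called and 0 of the 5, with 8 lower and 6 higher at an unadjusted p under 0.05, where 13.6% and 8.49% of all genes were.

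**Figure D2:**
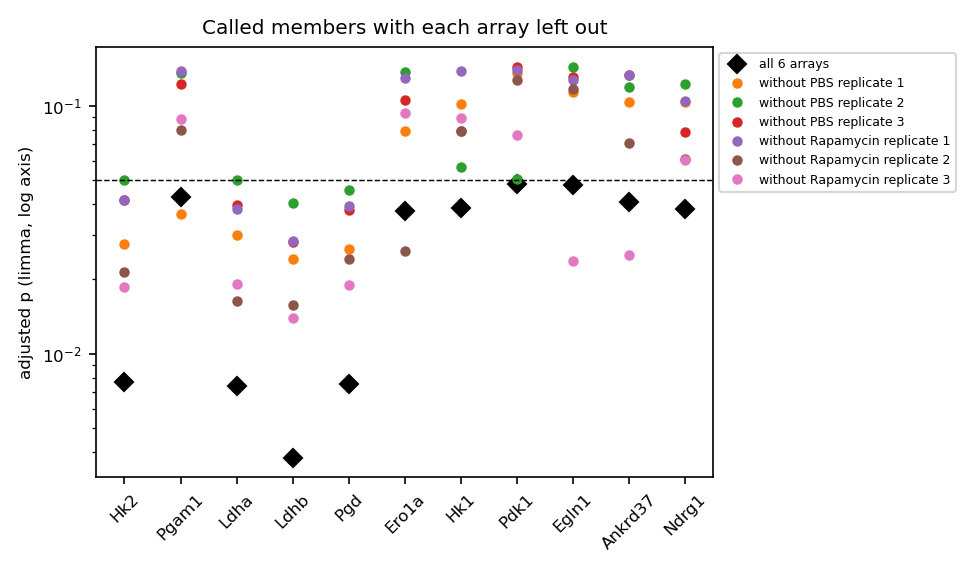
Limma's adjusted p (log axis) of the 11 genes called with all 6 arrays (black diamonds) and with each array left out (coloured points); the dashed line is 0.05. Ldhb and Pgd stay under the line throughout, Hk2 and Ldha touch it at 0.0504 without PBS replicate 2, and Hk1, Pdk1 and Ndrg1 lie above it in all 6 reduced fits.

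Among the transporters, none of the 4 passed limma's test, and 1 (Slc2a1) had an unadjusted p under 0.05. Slc2a1 encodes the glucose transporter GLUT1, and its log2 levels were 9.90, 9.85 and 9.80 in PBS replicates 1 to 3 and 10.22, 10.25 and 9.89 in rapamycin replicates 1 to 3. Rapamycin replicates 1 and 2 lay above all PBS arrays and replicate 3 within their range. The change was 0.27 ± 0.10 (SE), with limma's adjusted p of 0.122, and 0.38 with an adjusted p of 0.0186 without rapamycin replicate 3. In no other reduced fit did Slc2a1 pass, with limma's adjusted p up to 0.317. Slc2a3, the neuronal-type glucose transporter GLUT3 that leukocytes also use, stood at 11.31, 11.50 and 11.45 with PBS and at 11.35, 11.29 and 11.07 with rapamycin. Its groups overlapped, with a change of -0.18 ± 0.08 and an adjusted p of 0.205 in limma. The lactate exporter Slc16a3 (MCT4) went from 8.94, 9.06 and 9.08 to 9.13, 9.28 and 9.01, and its groups overlapped too (change 0.11, adjusted p 0.381). Slc16a1, the monocarboxylate carrier MCT1, changed by -0.13 (adjusted p 0.434).

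Hexokinases trap glucose in the cell as glucose 6-phosphate, and their genes moved differently. Hk2, the inducible form bound to mitochondria, had log2 levels of 8.47, 8.54 and 8.58 with PBS and of 8.12, 8.15 and 8.03 with rapamycin. Every rapamycin array lay below every PBS array, by a wide gap relative to the spread within groups. Hk2 fell by 0.43 ± 0.05 (1.34-fold), with limma's adjusted p of 0.00770. Hk3, the hexokinase of myeloid cells, changed by 0.11 (adjusted p 0.368) with overlapping groups. Among the later enzymes of upper glycolysis, Aldoa (aldolase A) stood at 11.88, 11.89 and 11.90 with PBS and at 11.98, 12.06 and 11.89 with rapamycin, a change of 0.09 with an adjusted p of 0.343. The phosphofructokinase genes Pfkl, Pfkp and Pfkm, the aldolase Aldoc and the triose phosphate isomerase Tpi1 changed by between -0.07 and 0.12, none with a call.

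Hk1, the constitutive hexokinase, had a pair of probe sets that moved in opposite directions. On the brighter one, which the rule takes, the levels were 11.87, 12.01 and 11.70 with PBS and 12.23, 12.14 and 12.22 with rapamycin. On the dimmer one they were 9.08, 9.11 and 9.17 with PBS and 8.81, 8.85 and 8.73 with rapamycin. On neither did the groups overlap. The brighter set rose by 0.34 ± 0.08 (adjusted p 0.0389), and the dimmer one, fitted in its place, fell by 0.32 ± 0.05 (adjusted p 0.0127, both with limma). The difference of brighter minus dimmer went from 2.74 ± 0.19 to 3.40 ± 0.10 (SD, n = 3 arrays each), a shift of 0.66, given as a description, since both sets already separate the groups.

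The annotation of the Hk1 probe sets also differs. The brighter set lists 1 accession, an older mRNA record, and 0 RefSeq mRNAs, and the dimmer set lists 8 accessions with 2 RefSeq mRNAs of Hk1. The single accession of the brighter set recurs in 16 further probe sets, each of which is annotated to Hk1 together with Rpl17, a protein of the large ribosomal subunit. All 16 had higher means with rapamycin, by between 0.09 and 0.29 with a median of 0.20, and all 16 were lowest of the PBS arrays in replicate 3, as was the brighter Hk1 set. The dimmer set had its highest level in that array. Which RNA the brighter set reads was not tested. With the RefSeq-supported set in its place, 4 of the 35 genes rose and 7 fell.

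**Figure D3:**
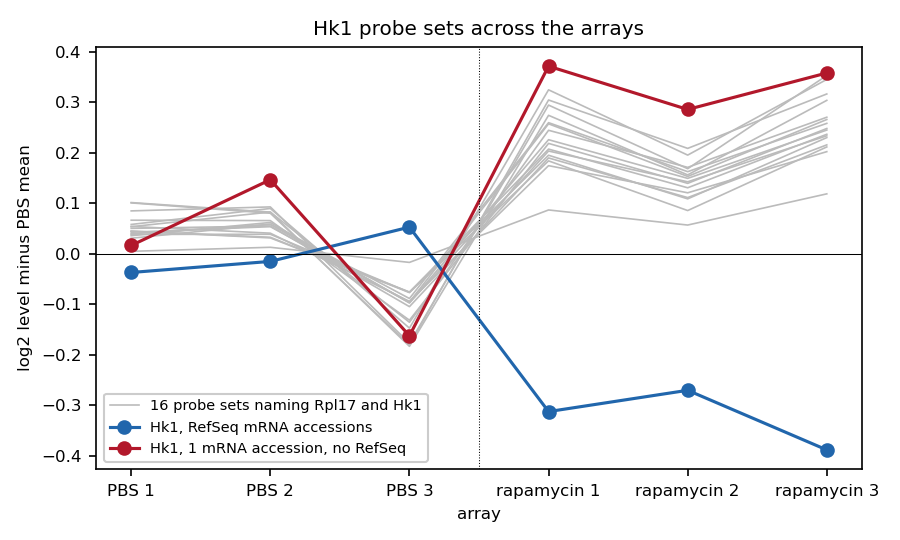
Log2 level minus the PBS mean (vertical axis) on each of the 6 arrays for the Hk1 probe set with 1 mRNA accession and no RefSeq mRNA (red), the one with RefSeq mRNAs (blue) and the 16 probe sets annotated to Rpl17 and Hk1 together (grey). The red and grey lines share the dip in PBS 3 and lie above 0 on all rapamycin arrays, and the blue line lies below 0 there.

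In lower glycolysis, Pgam1, the phosphoglycerate mutase, had levels of 10.67, 10.85 and 10.81 with PBS and of 10.51, 10.58 and 10.53 with rapamycin. All rapamycin arrays lay below all PBS arrays, the nearest pair being PBS replicate 1 and rapamycin replicate 2. Pgam1 fell by 0.24 ± 0.06 (1.18-fold, limma adjusted p 0.0428). Its other probe sets, a pair with identical values, also lay lower without overlap, by -0.19 with an adjusted p of 0.0727, and the mean of its probe sets had an adjusted p of 0.0609. It passed in 1 of the 6 reduced fits, without PBS replicate 1. Pgk1, the first ATP-forming enzyme of glycolysis, stood at 10.66, 10.83 and 10.81 and then at 10.86, 11.02 and 10.83, a change of 0.13 that did not pass (adjusted p 0.260). Another Pgk1 probe set had identical values. A further one was narrowly higher on every rapamycin array, by 0.14, and did not pass either (limma adjusted p 0.217). Pkm, the pyruvate kinase that ends the pathway, stood between 11.38 and 11.45 with PBS and between 11.39 and 11.41 with rapamycin. Its change was -0.01 ± 0.04 on the chosen probe set and 0.01 on the other. Gapdh was left out since its 25 probe sets also carry other gene symbols, and their changes lay between -0.03 and 0.03.

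Of the 40 genes, Ldha, Ldhb and Pdk1 act on the fate of pyruvate, and all 3 were called, 2 lower and 1 higher. Ldha encodes the lactate dehydrogenase subunit that favours lactate formation. Its log2 levels were 11.96, 11.97 and 12.01 with PBS and 11.45, 11.61 and 11.52 with rapamycin. The PBS arrays lay close together and well above the rapamycin arrays. Ldha fell by 0.46 ± 0.05 (1.37-fold, limma adjusted p 0.00739). Ldhb, the subunit that favours the reverse reaction, went from 5.999, 5.96 and 6.02 to 5.50, 5.40 and 5.45. Here too no array overlapped, and the fall of 0.55 ± 0.05 (1.46-fold, adjusted p 0.00380 in limma) held its call under each of 17 alternative settings. A second Ldhb probe set gave a change of -0.56 with a wider spread (SD 0.25 with PBS, 0.11 with rapamycin, 3 arrays each).

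Pdk1, the kinase that switches off pyruvate dehydrogenase and is a direct HIF1 target, moved the other way. Its levels were 6.63, 6.86 and 6.65 with PBS and 6.98, 7.06 and 6.95 with rapamycin. The highest PBS array, replicate 2, came close to the lowest rapamycin array, replicate 3. Pdk1 rose by 0.28 ± 0.07 (1.22-fold, limma adjusted p 0.0484) and passed in 0 of the 6 reduced fits, with adjusted p-values from 0.0508 to 0.144.

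Of the other genes for the entry of pyruvate into mitochondria, 12 of 14 were tested with limma, and 0 rose while 4 fell (0 and 5 at an unadjusted p under 0.05, where 11.3% and 16.9% of all genes were higher and lower). Pdha1 and Pdhb encode the E1 subunits of the pyruvate dehydrogenase complex, Dlat its E2 subunit and Mpc1 a subunit of the mitochondrial pyruvate carrier. Pdha1 went from 9.51, 9.43 and 9.47 with PBS to 9.09, 9.16 and 9.11 with rapamycin, a change of -0.35 ± 0.05 (limma adjusted p 0.00819). Pdhb changed by -0.50 ± 0.07 (adjusted p 0.00937), Dlat by -0.33 ± 0.05 (0.0127 after adjustment) and Mpc1 by -0.43 ± 0.09 (adjusted p 0.0288). On none of these did the groups overlap. Dld, the E3 subunit, was also lower on every rapamycin array, but its change of -0.19 did not pass (adjusted p 0.0801). The kinase genes Pdk2 and Pdk3 changed by -0.07 and 0.02, and Pdk4 was too dim. The count of 4 was 1 (Pdha1) without PBS replicate 2, 2 (Pdha1 and Pdhb) without PBS replicate 3 or rapamycin replicate 1, and 0 in an unmoderated fit. In these 4 fits 61, 243, 220 and 57 of all genes were called lower, in that order.

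**Figure D4:**
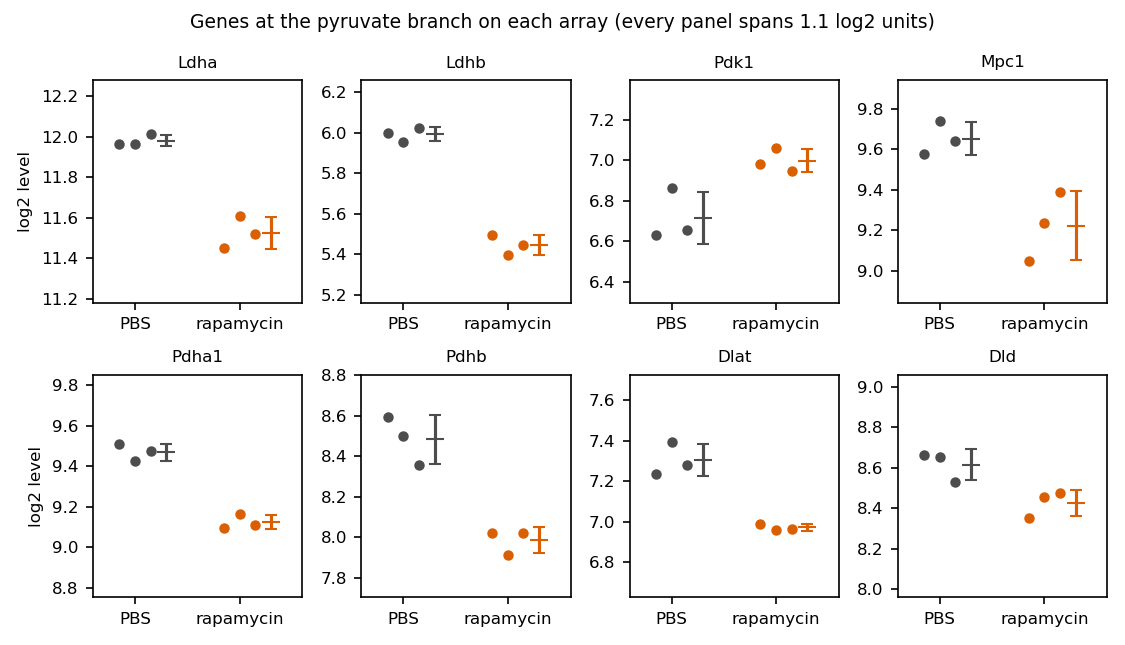
Log2 level on each array (points) with mean ± SD (bars, n = 3) for Ldha, Ldhb, Pdk1, Mpc1, Pdha1, Pdhb, Dlat and Dld with PBS (grey) and rapamycin (orange); each panel spans 1.1 log2 units. In all 8 panels the groups do not overlap, with rapamycin lower in 7 and higher for Pdk1, and Dld did not pass the test.

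The bifunctional enzymes that set fructose 2,6-bisphosphate, an activator of phosphofructokinase, lay on opposite sides without a call. Pfkfb3 stood at 7.81, 7.82 and 7.79 with PBS and at 8.04, 7.91 and 7.91 with rapamycin. Pfkfb4 stood at 9.15, 9.37 and 9.31 with PBS and at 9.03, 9.10 and 8.93 with rapamycin. Neither gene's groups overlapped, Pfkfb3 being higher and Pfkfb4 lower on every rapamycin array. The changes were 0.15 ± 0.05 (limma adjusted p 0.105) for Pfkfb3 and -0.25 ± 0.07 (adjusted p 0.0701) for Pfkfb4, and the latter passed after a repeated quantile normalization (0.0459) and with array medians aligned (0.0481).

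In the pentose phosphate pathway, 1 of 4 genes tested was called, Pgd, which encodes the later of its NADPH-forming dehydrogenases. Its levels were 11.71, 11.83 and 11.76 with PBS and 11.37, 11.37 and 11.36 with rapamycin. The rapamycin arrays were nearly equal and all lay below the PBS arrays. Pgd fell by 0.40 ± 0.05 (1.32-fold, limma adjusted p 0.00752) and kept its call in 16 of 17 alternatives, the exception being the unmoderated fit (0.0509). Tkt, the transketolase of the non-oxidative branch, went from 11.12, 11.23 and 11.25 to 11.06, 11.06 and 11.07, without overlap. Its change of -0.14 ± 0.05 did not pass (adjusted p 0.117), though it did after a repeated quantile normalization (-0.24, 0.0237). Taldo1, the transaldolase, went from 10.41, 10.41 and 10.50 to 10.53, 10.62 and 10.50, narrowly higher on every rapamycin array, with a change of 0.11 and an adjusted p of 0.214. Pgls, the lactonase between the dehydrogenases, changed by 0.01. Among 11 further genes of the pathway tested with limma, 0 rose and 2 fell, against 2 and 5 at an unadjusted p under 0.05 (11.3% and 16.9% of all genes). They were Prps1, which makes phosphoribosyl pyrophosphate from ribose 5-phosphate (-0.44 ± 0.08, adjusted p 0.0205), and Dera, which splits deoxyribose phosphate (-0.36 ± 0.07, adjusted p 0.0252). Each of these 2 passed in 2 of the 6 reduced fits. Idnk, a gluconate kinase, was higher by 0.26 (adjusted p 0.0716) and passed without rapamycin replicate 3 (0.0248).

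Hif1a, the regulated subunit of HIF1, had log2 levels of 9.51, 9.41 and 9.35 with PBS and of 9.43, 9.67 and 9.13 with rapamycin. The rapamycin arrays spanned the PBS arrays on both sides, with replicate 2 highest and replicate 3 lowest. Its change was -0.01 ± 0.13 with limma's adjusted p of 0.963, and 0.13 without rapamycin replicate 3. RNA does not report the protein, which is controlled by degradation. Egln1, the main oxygen-sensing prolyl hydroxylase, went from 7.14, 7.13 and 7.12 to 7.49, 7.39 and 7.26. Its PBS arrays were nearly equal, and every rapamycin array lay above them. Egln1 rose by 0.25 ± 0.06 (1.19-fold, adjusted p 0.0480 in limma) and passed in 1 of the 6 reduced fits, without rapamycin replicate 3 (0.0237). Egln3, a hydroxylase that HIF itself induces, stood at 7.84, 8.04 and 7.96 with PBS and at 7.97, 8.60 and 7.90 with rapamycin. Only rapamycin replicate 2 of these lay above the PBS range, and the change of 0.21 ± 0.18 did not pass (adjusted p 0.472) and was -0.0099 without that array.

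Among 15 further subunits and regulators of HIF that were tested, 2 rose and 1 fell, where 4.42% and 6.92% of all genes did. At an unadjusted p under 0.05 in limma, 3 were higher and 4 lower, against 11.3% and 16.9% of all genes. Ep300, a histone acetyltransferase that HIF recruits, rose by 0.35 ± 0.05 (limma adjusted p 0.0103). Epas1, which encodes the HIF2 alpha subunit, rose by 0.23 ± 0.06 from a dim level (adjusted p 0.04996, just under the threshold) and passed in 0 of the 6 reduced fits. Egln2, another prolyl hydroxylase, fell by 0.29 ± 0.07 (adjusted p 0.0368) and also passed in 0 of these 6 fits, while Ep300 passed in 4.

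Of the other HIF1 targets, Ero1a, an oxidase that forms disulfide bonds in the endoplasmic reticulum, had levels of 10.62, 10.81 and 10.68 with PBS and of 10.17, 10.49 and 10.24 with rapamycin. Replicate 2 was the highest array in both groups, and no rapamycin array reached a PBS array. Ero1a fell by 0.40 ± 0.09 (1.32-fold, limma adjusted p 0.0376) and passed in 1 of the 6 reduced fits, without rapamycin replicate 2 (0.0260). Ankrd37, an ankyrin-repeat gene known as a hypoxia target, went from 6.24, 6.26 and 6.08 to 6.65, 6.91 and 6.44. All rapamycin arrays were higher, with a wider spread among them (SD 0.23 against 0.10, 3 arrays each). Ankrd37 rose by 0.48 ± 0.12 (1.40-fold, adjusted p 0.0409 in limma) and passed without rapamycin replicate 3 (0.0250) but in no other reduced fit.

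Ndrg1, a stress-responsive gene of the N-myc downstream regulated family, went from 9.13, 9.15 and 9.21 to 9.49, 9.34 and 9.36, higher on every rapamycin array. Ndrg1 rose by 0.23 ± 0.05 (1.18-fold, limma adjusted p 0.0382) and passed in 0 of the 6 reduced fits, with adjusted p-values from 0.0604 to 0.123. P4ha1, a collagen prolyl hydroxylase subunit named here after its values were seen, had the largest positive change of the 35 genes. Its levels were 6.83, 7.23 and 6.81 with PBS and 7.52, 7.70 and 7.23 with rapamycin, and PBS replicate 2 and rapamycin replicate 3 coincided. The change of 0.53 ± 0.15 did not pass (limma adjusted p 0.0644). It passed without rapamycin replicate 3 (0.0461) but in no other reduced fit, with adjusted p-values up to 0.195. Vegfa, the vascular growth factor, changed by 0.02, the histone demethylase Kdm3a by 0.08 and Ddit4, which encodes the mTORC1 inhibitor REDD1, by -0.19, none with a call.

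**Figure D5:**
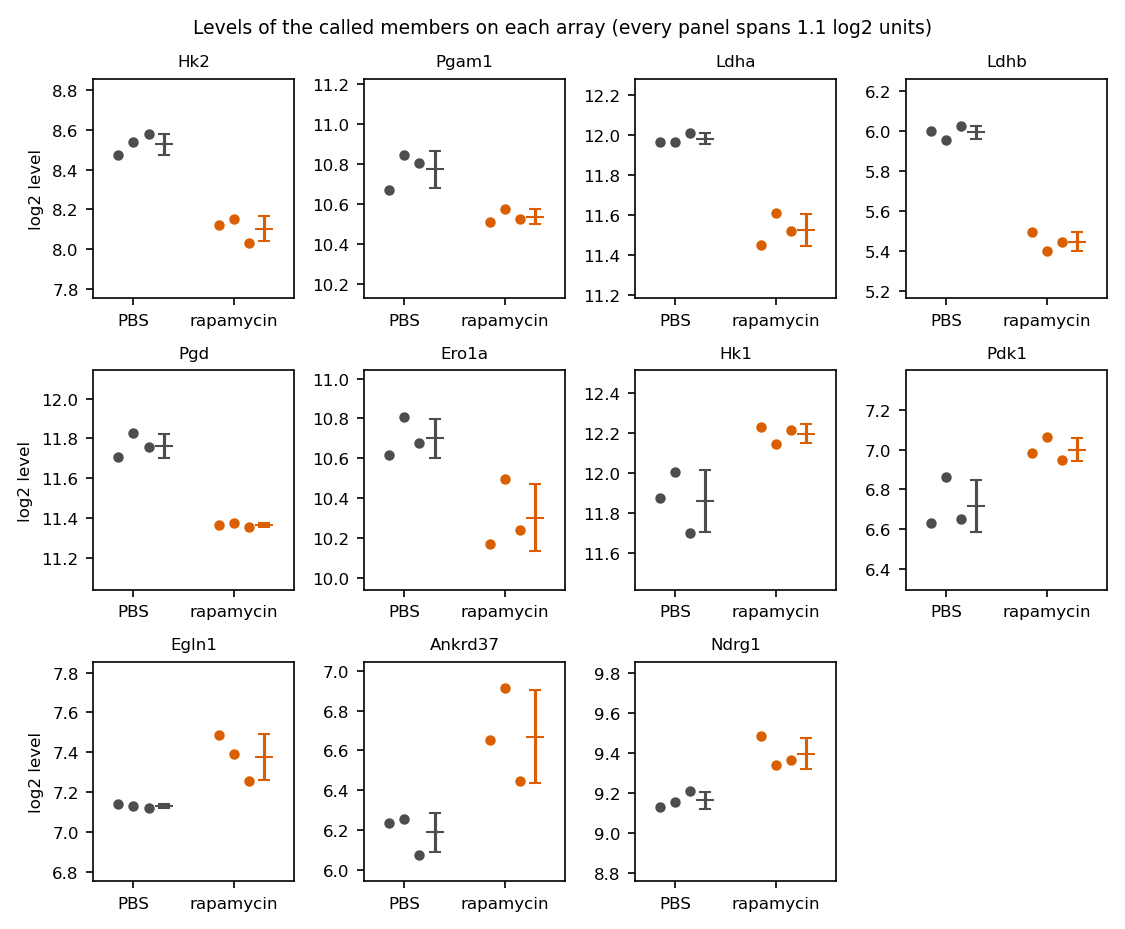
Log2 level on each array (points, replicates 1 to 3 from left to right) with mean ± SD (bars, n = 3) for the 6 genes that fell and the 5 that rose, with PBS in grey and rapamycin in orange; each panel spans 1.1 log2 units. In no panel do the groups overlap, with wide gaps for Ldhb (6 arrays between 5.40 and 6.02) and Ldha, and narrow ones for Pgam1, Pdk1 and Egln1.

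A list of 33 further HIF targets that were tested had 2 genes that rose and 3 that fell, shares near the 4.42% and 6.92% of all genes. Mif, a cytokine, went from 9.82, 9.70 and 9.63 to 10.35, 10.36 and 10.32 and rose by 0.63 ± 0.06 (1.54-fold, limma adjusted p 0.00448), with a call in all 6 reduced fits. Hmox1, the haem-degrading oxygenase, rose by 0.72 ± 0.14 (adjusted p 0.0241) and passed in 1 of these fits. Bnip3l, a mitophagy receptor, fell by 0.43 ± 0.07 (adjusted p 0.0110), Mxi1, an antagonist of Myc, by 0.28 ± 0.05 (adjusted p 0.0187), and Gbe1, the glycogen branching enzyme, by 0.29 ± 0.07 (adjusted p 0.0349). Bnip3l passed in 4 of the 6 fits, Mxi1 in 2 and Gbe1 in 1.

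Among 23 further genes of glycolysis and gluconeogenesis that were tested with limma, 0 rose and 3 fell, against 0 and 7 at an unadjusted p under 0.05 (11.3% and 16.9% of all genes). Pck2, the mitochondrial phosphoenolpyruvate carboxykinase, fell by 0.42 ± 0.07 (limma adjusted p 0.0134), Bpgm, the bisphosphoglycerate mutase, by 0.33 ± 0.08 (adjusted p 0.0392), and the muscle-type mutase Pgam2 by 0.23 ± 0.05 (adjusted p 0.0368). Pck2 passed in 4 of the 6 reduced fits, Pgam2 in 1 and Bpgm in 0. Among 17 further genes of sugar and monocarboxylate transport and its glucose-sensing regulators, 2 rose and 0 fell, where 4.42% and 6.92% of all genes did. At an unadjusted p under 0.05 in limma, 3 were higher and 4 lower, where 11.3% and 16.9% of all genes were. Whether this list departed from these shares was not tested. Mlxip, the glucose-responsive factor MondoA, went from 8.53, 8.57 and 8.55 to 8.85, 8.83 and 8.91 and rose by 0.32 ± 0.04 (adjusted p 0.00908), and its target Arrdc4, an arrestin-like gene, rose by 0.32 ± 0.07 (adjusted p 0.0370). Mlxip passed in 5 of the 6 fits and Arrdc4 in 1. Txnip and Mlx of the same list had no call. Txnip changed by 0.14 with overlapping groups (limma adjusted p 0.239), and Mlx was lower on every rapamycin array, by 0.11 (0.173). Slc2a5, the fructose transporter GLUT5, was higher on every rapamycin array by 0.17 without a call (adjusted p 0.0678).

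One rapamycin array ranked apart across the 35 genes. Rapamycin replicate 3 had the lowest level of the 3 rapamycin arrays in 23 of them (65.7%), compared with 33.1% of all genes tested, and rapamycin replicate 2 had the highest in 22. The SD was larger with rapamycin than with PBS for 22 of the 35 genes (62.9%), against 53.9% of all genes. Rapamycin replicate 3 also had the lowest limma array weight, 0.73, and PBS replicate 2 the highest, 1.62. The mean levels of the neutrophil marker lists set the same array apart from the other rapamycin arrays. Rapamycin replicates 1 to 3 had mean levels of 10.73, 10.77 and 10.54 for mature neutrophil markers and of 11.22, 11.21 and 11.34 for progenitor markers. PBS replicates 1 to 3 stood at 10.52, 10.64 and 10.58 and at 11.33, 11.31 and 11.33. By these means rapamycin replicate 3 was close to the PBS arrays, and rapamycin replicates 1 and 2 lay further from them. Single markers of rapamycin replicate 3 left the PBS range in both directions. Among mature markers it read 11.66 for Ly6g (PBS 12.19, 12.36 and 12.33) and 11.90 for Il1r2 (PBS 11.24, 11.28 and 11.19). Among progenitor markers it read 13.04 for Ltf (PBS 13.27, 13.30 and 13.18) and 11.51 for Elane (PBS 11.16, 11.13 and 11.17). The part of these levels in the rank of rapamycin replicate 3 was not tested.

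Some markers of other cells differed between the groups. As a reference for the counts below, limma called 4.42% of all genes tested higher and 6.92% lower. With p below 0.05 before adjustment, these shares were 11.3% and 16.9%. Whether any marker list departed from these shares was not tested. Of 8 T and NK cell markers tested, 3 fell (Cd3g, Cd8a and Nkg7) and 0 rose. The mean log2 level of the 12 measured ones lay between 5.31 and 5.44 with PBS and between 5.13 and 5.21 with rapamycin, with Cd3d, Ncr1, Klrb1c and Gzma too dim. Erythroid markers lay between 5.36 and 5.39 with PBS and between 5.47 and 5.62 with rapamycin, with 1 of 9 called higher (Slc4a1). Among the myeloid lists, 3 of 14 mature neutrophil markers rose and 1 fell, 2 of 11 monocyte markers rose and 3 fell, and 1 of 14 macrophage markers rose and 2 fell. None of 12 neutrophil progenitor markers was called by limma, with 1 higher and 1 lower at an unadjusted p under 0.05. The mean level of the mature neutrophil markers ranged from 10.52 to 10.64 with PBS and from 10.54 to 10.77 with rapamycin, and that of the macrophage markers from 8.004 to 8.35 and from 8.23 to 8.39. Of the remaining lists, 1 of 4 B and plasma cell markers fell, and by limma 0 of 7 eosinophil, basophil and mast cell markers and 0 of 3 platelet markers were called, with 2 and 0 lower at an unadjusted p under 0.05. The mean level of the former list nonetheless lay lower on every rapamycin array, between 5.24 and 5.32 with PBS and between 5.09 and 5.19 with rapamycin. In that list 5 of 12 markers were too dim. The list did not shift as a whole, since 4 of the 7 tested changed upward and 3 downward, with a median of 0.008. Within it the largest changes were those of Mcpt8 (-0.70) and Cpa3 (-0.56), which did not overlap between groups. The part of these shifts in the changes of Ldha, Ldhb, Hk2, Pgd and the other genes was not tested.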

How the data were processed

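Total RNA of sorted spleen cells from 6 mice was read on 1 whole-transcript array per mouse. The values deposited by the authors are on the log2 scale, 1 per probe set and array. They come from RMA in Affymetrix Expression Console, per the submitters' processing notes, which name no versions. RMA corrects background, equalises the arrays' distributions and combines probes, so a shift of most genes one way would be removed, and close values can tie: Tpi1 and Adm were identical on the 3 PBS arrays. The number of arrays limits the precision.

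Gene symbols are those of GEO's table for the array platform, which can be out of date. The table gives 1 symbol for 21789 of 35556 probe sets and several for 1621, and it does not list the other 12146. The brightest probe set was kept for each of 19938 genes, and 5973 under the 30th percentile (log2 4.72) were set aside. The comparison of rapamycin with PBS used limma 3.58.1, run in R 4.3.3 (lmFit and eBayes, 2-sided), with Benjamini-Hochberg adjustment over the 13965 genes tested and calls at adjusted p-values under 0.05, with moderated standard errors. The labels call the mice biological replicates and give no array date, so batches were not tested.

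The 40 genes, the further lists (258 of 278 entries measured) and the settings were chosen with earlier results of these data known. Values by array are given for called genes and for up to 3 genes per role by moderated statistic. From each further list up to 3 by that statistic are named. Others, such as Mpc1, Hmox1, Gbe1, Dld, P4ha1, Txnip, Mlx and the pyruvate dehydrogenase kinases, were chosen after their values were seen. Alternatives were no or a stricter brightness filter, a repeated quantile normalization, aligned array medians, other choices of probe set, a variance trend with robust estimation, a block for the replicate number, array weights, no moderation of the variance, and 1 array omitted at a time. Figures used matplotlib 3.10.9 in Python 3.11.15.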

Additional observations from a re-analysis of the deposited data

How the results depend on the processing

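Of 779 values for 46 named results under the alternatives, 595 kept their direction and side of the threshold, 163 kept the direction and lost the call, 11 kept the direction and gained one, and 10 changed sign. One of these had a call on either side, Hk1 with RefSeq-supported probe sets preferred, at -0.32 (limma adjusted p 0.0126). The others were genes without a call under either setting. Aldoa changed by -0.035 after a repeated quantile normalization, Pkm by 6.5e-05 with the mean of its probe sets and by 0.024 with the medians of the tested genes aligned, and Hif1a by 0.012 with array weights and by 0.020 with those medians aligned. With an array left out, Hif1a ranged from -0.14 to 0.13, Pkm from -0.023 to 0.016 and Egln3 from -0.0099 to 0.34. With the mean of its probe sets Hk1 changed by 0.0071 (adjusted p 0.942). The RefSeq preference, the alignment of the medians of the tested genes and the alternatives for genes outside the 40 were added after seeing the data.

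Calls over all genes numbered 1584, 86 in an unmoderated fit, and between 113 and 1336 with each array left out in turn. With the medians of the tested genes aligned, 875 rose and 707 fell (44.7% lower), against 617 and 967 (61.0% lower). Counts of all genes called in the same direction follow in brackets. The 5 genes of the set called higher (617) became 1 with no filter on dim genes (489). The count was 3 after a repeated quantile normalization (608), 3 with array medians aligned (548) and 3 with array weights (727). It was 0 in an unmoderated fit (29) and between 0 and 4 with an array left out (between 52 and 561). The count of 5 became 6 with the stricter filter (704) and with the medians of the tested genes aligned (875). The 6 called lower (967) became 8 after a repeated quantile normalization (1342). The count was 7 with array medians aligned (1341) and with RefSeq-supported probe sets (967). It was 1 in an unmoderated fit (57) and between 2 and 5 with an array left out (between 61 and 775). The median change was -0.0070 with array medians aligned and ranged from -0.003 to 0.042 with an array left out. The shift between the Hk1 probe sets was 0.55 after a repeated quantile normalization and between 0.55 and 0.74 with an array left out. Fewer calls follow in part from fewer samples or from variances not pooled over genes; other causes were not tested.

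With the replicate number as a block, 768 genes rose and 923 fell. The genes of the set called higher stayed at 5, with Ndrg1 lost (adjusted p 0.0581) and P4ha1 gained (0.00947), and the pyruvate entry genes called lower stayed at 4. The deviations of same-numbered arrays from their group means had correlations of 0.26, -0.0004 and 0.031. Differently numbered arrays were not compared, so these values cannot decide whether the numbers pair the mice. With 3 arrays a group, differences of the size of Pfkfb3 (0.15) or smaller did not pass for any of the 35 genes.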
